A study of Mus musculus with 24 samples.

Results

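The IFI200 genes are a cluster of related mouse genes on chromosome 1 whose products carry a DNA-binding HIN domain, and Aim2 lies at one end of that cluster. The 10 genes described here are Ifi203, Ifi204, Ifi205, Ifi206, Ifi207, Ifi209, Ifi211, Ifi213, Mndal and Aim2, taken by symbol from the deposited table of 45777 genes, in which all 10 were found. They were chosen with their values in model and control tissue known, so those values are given below as a description without a p-value.

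RNA was sequenced from the skin and dorsal root ganglia (DRG, which hold the cell bodies of sensory neurons) of female BALB/c mice aged 6 weeks, in 4 groups of 6 libraries. In the model groups LL37, a human cathelicidin peptide that produces rosacea-like inflammation, was injected intradermally (320 µM, 40 µL, 2 injections per day for 2 days). Control mice carry no treatment in the labels, and the sources used here do not give what they were injected with. The series text says that gabapentin (100 mg/kg) was given by mouth from day 3 and that DRG were taken on day 4. It does not say which animals received the drug, and no sample label names it, so a part of gabapentin in any difference cannot be told apart. The labels do not tie libraries to separate animals, so a p-value here measures the spread among these samples only. The 24 libraries held 45238735 to 68396846 counts each, and no 2 libraries of a group were duplicates. The labelled tissues matched their defining markers. The summed level of 7 keratinocyte markers was 7530 to 25300 CPM in skin libraries and 3.57 to 5.68 CPM in DRG libraries, and that of 8 sensory neuron markers was 7490 to 10200 CPM in DRG and 5.17 to 44.3 CPM in skin.

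In most IFI200 proteins a pyrin domain, which binds other pyrin domains, precedes the HIN domain, which binds double-stranded DNA. Aim2 is a receptor for DNA in the cytosol: on binding DNA it gathers the adaptor ASC (gene Pycard) and caspase-1 into an inflammasome, which matures IL-1β and IL-18 and cuts gasdermin D. Ifi204 encodes p204, a relative of human IFI16 that has been tied to the cGAS and STING route from DNA to type I interferon. Many genes of the family are themselves induced by interferon, and in immune tissue they are known from macrophages and other myeloid cells.

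The letters just upstream of the start sites show what the family has in common outside its coding sequence. A window of 250 bases before the start site was found in RefSeq (GRCm38.p6) for 9 of the 10 genes, and for Ifi204 none was in the table. The interferon-stimulated response element was searched as GAAA, any 2 bases and GAAA again, and the interferon-gamma activated site as TTCNNNGAA, on both strands. The first set of letters was present in 7 of the 9 genes: Ifi203 (in 1 of its 2 windows), Ifi205, Ifi206, Ifi207, Ifi211, Ifi213 and Mndal. It was present in 3 of 48 genes of the pathway lists described below (6.25%). By window, it was in 8 of 11 windows of the members (72.7%), against 2.98% of all 32851 windows of this length. Windows of the family resemble each other, so their matches are not separate occurrences. The second set of letters was present in 0 of the 11 member windows, against 7.02% of all windows. A match of letters is a description of the reference sequence, which is that of strain C57BL/6J and not BALB/c. The stretches of 30 bases around the match are shown because they compare the family members directly, with the 10 bases of the match in capitals and each written 5′ to 3′ in the direction of the gene.
Ifi203 (chr1:173942508-173942537, minus strand): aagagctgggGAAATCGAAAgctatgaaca
Mndal (chr1:173880204-173880233, minus strand): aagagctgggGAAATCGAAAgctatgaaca
Ifi206 (chr1:173491339-173491368, minus strand): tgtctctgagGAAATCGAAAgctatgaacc
Ifi213 (chr1:173599326-173599355, minus strand): cgtctctgagGAAATCGAAAgctatgaacc
Ifi207 (chr1:173741831-173741860, minus strand): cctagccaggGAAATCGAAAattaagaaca
Ifi211 (chr1:173913064-173913093, minus strand): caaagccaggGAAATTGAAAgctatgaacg
Ifi205 (chr1:174031870-174031899, minus strand): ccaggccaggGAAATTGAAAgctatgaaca
Ifi209 (chr1:173630770-173630799, plus strand): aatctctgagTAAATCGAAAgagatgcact

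Ifi203 and Mndal had the same 30 bases. Ifi205 and Ifi211 shared the form GAAATTGAAA, and the other matches shown had GAAATCGAAA. Mndal had a match in both of its 2 windows, and that of the other window, not shown, read TTTCTCTTTC in the direction of the gene, so that the motif lay on the opposite strand. The nearest stretch of Ifi209 differed from the motif by 1 substitution, G1T, counted from 1 at the motif's 5′ end. The nearest in Aim2 had 3 substitutions, so that its window held no close match. Counted from the start site, the matches shown began at position -35 in Ifi203, -36 in Mndal, -37 in Ifi211, -40 in Ifi206, -41 in Ifi207, -73 in Ifi213 and -134 in Ifi205. The second Mndal match began at -54 from the start site of its own window. The whole window of Ifi206 is printed as 1 example, to show the match in its setting (chr1:173491319-173491568, minus strand, GRCm38.p6, RefSeq).
Ifi206: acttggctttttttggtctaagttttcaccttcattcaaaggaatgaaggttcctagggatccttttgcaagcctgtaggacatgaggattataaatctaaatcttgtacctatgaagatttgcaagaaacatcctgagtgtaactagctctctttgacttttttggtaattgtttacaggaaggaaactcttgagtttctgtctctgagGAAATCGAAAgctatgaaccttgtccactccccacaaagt

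The family occupied 682 kb, from position 173349547 to 174031755 of chromosome 1 (GRCm38.p6), with 14 family genes in the table. Aim2 (gene 383619) was annotated from 173349547 to 173466040 and Ifi205 (gene 226695) at the other end from 174011998 to 174031755. The annotated span of Aim2 overlaps that of Cadm3, and the sources used here do not give the strand setting of the counting, so reads of this overlap cannot be assigned between them. Reads from near-identical stretches are a second limit on single members. Of the 75-base stretches in the GENCODE M21 transcripts of each gene, 63.6% of those of Ifi211 occurred in another family gene, 40.6% in Ifi205 and 23% in Ifi204. The share was 23.1% for Ifi209 (with Ifi214), 16.6% for Ifi205 (with Ifi211), 13.2% for Ifi204, 11.1% for Ifi206, 9.94% for Mndal, 8.07% for Ifi213, 5.71% for Ifi203, 1.53% for Ifi207 and 0% for Aim2. The levels of Ifi211 are therefore the least certain of the family, and those of Ifi207 and Aim2 the least touched by shared sequence.

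In skin, all 10 genes were higher in the model than in the control libraries, and for each of them the lowest model library lay above the highest control library. Levels are CPM (counts scaled to library size, with TMM factors), and log2 fold changes with their standard error (SE) come from edgeR. The call, a Benjamini-Hochberg (BH) adjusted p under 0.05, was met by 10 of 10 members as higher, against 14.1% of all 19526 genes tested in skin that were higher and 5.82% that were lower. Among all genes tested in skin, 7.15% had their lowest model value higher than their highest control value. The members were chosen on this contrast, so nothing is read from their counts, and Ifi206 and Ifi213 entered the test only through their model libraries. The median log2 fold change of the members was 2.41 (5.32-fold), within 1.80 to 6.74, and that of all genes tested was -0.02. In whole tissue, more cells of a type that expresses a gene and more RNA per cell cannot be told apart.

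Ifi204, the p204 gene, was at 6.84, 10.9 and 20.7 CPM (lowest, median and highest of 6) in control skin and at 30.6, 92 and 141 CPM in model skin. Its mean was 12.7 ± 5.41 CPM (SD, n = 6) in control and 89.8 ± 45 CPM (SD, n = 6) in model skin, 7.1-fold higher (log2 2.83 ± 0.40, SE). Skin model 5 gave the lowest model value and skin model 4 and skin model 1 the highest. Aim2, the inflammasome sensor, was at 2.37, 2.95 and 4.49 CPM in control skin and at 5.98, 10.5 and 19.1 CPM in model skin. Its mean went from 3.13 ± 0.751 to 12 ± 4.74 CPM (SD, n = 6 each), a 3.83-fold difference (log2 1.94 ± 0.27, SE). Here skin model 2 was the highest and skin model 5 again the lowest.

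Ifi203, Ifi207 and Mndal, PYHIN genes had fold changes close to each other in skin. Ifi203 was at 9.24, 14.1 and 19.4 CPM in control skin and at 32.8, 80.4 and 119 CPM in model skin (log2 2.45 ± 0.31, SE, 5.46-fold). Mndal, named for its likeness to the human myeloid nuclear differentiation antigen, was at 7.06, 12.5 and 16.4 CPM and at 30.8, 68.3 and 84.9 CPM (log2 2.37 ± 0.31, SE, 5.19-fold). For Ifi207 the values were 6.43, 15.5 and 24.3 CPM and 32.1, 76 and 111 CPM (log2 2.25 ± 0.35, SE, 4.76-fold). The 3 log2 fold changes lay within 1 SE of each other.

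Ifi205 and Ifi211, which share most sequence with each other, were both higher in every model library. Ifi205 was at 9.51, 15.4 and 24.6 CPM in control skin and at 36.2, 46.2 and 96.1 CPM in model skin (log2 1.80 ± 0.31, SE, 3.47-fold), the smallest log2 fold change of the 10 genes. Ifi211 was at 5.56, 8.02 and 13.8 CPM and at 21.3, 43.4 and 72.8 CPM (log2 2.38 ± 0.34, SE, 5.2-fold). In both genes skin model 4 had the highest value.

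The other 3 members had the lowest levels in control skin and the largest log2 fold changes in edgeR. Ifi209 was at 0.312, 0.878 and 1.29 CPM in control skin and at 4.1, 27.8 and 35.4 CPM in model skin, 27.3-fold higher (log2 4.77 ± 0.58, SE). Ifi206 had 6 counts in all 6 control libraries together, with 4 of them at 0, and 713 counts in model skin, at 0.7, 2.29 and 3.98 CPM (log2 6.74 ± 0.73, SE). Ifi213 had 4 counts, all in skin control 3, and 391 counts in model skin, at 0.244, 1.41 and 1.79 CPM (log2 6.37 ± 0.81, SE). The fold changes of Ifi206 and Ifi213 rest on these few control counts: the log2 value of Ifi206 was 7.40 without skin control 6, and that of Ifi213 was 9.03 without skin control 3, after which no control count was left and the value depends on the prior count of the fit. On the scale log2(TPM + 1) the same genes differed by 1.16 and 0.69.

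**Figure D1:**
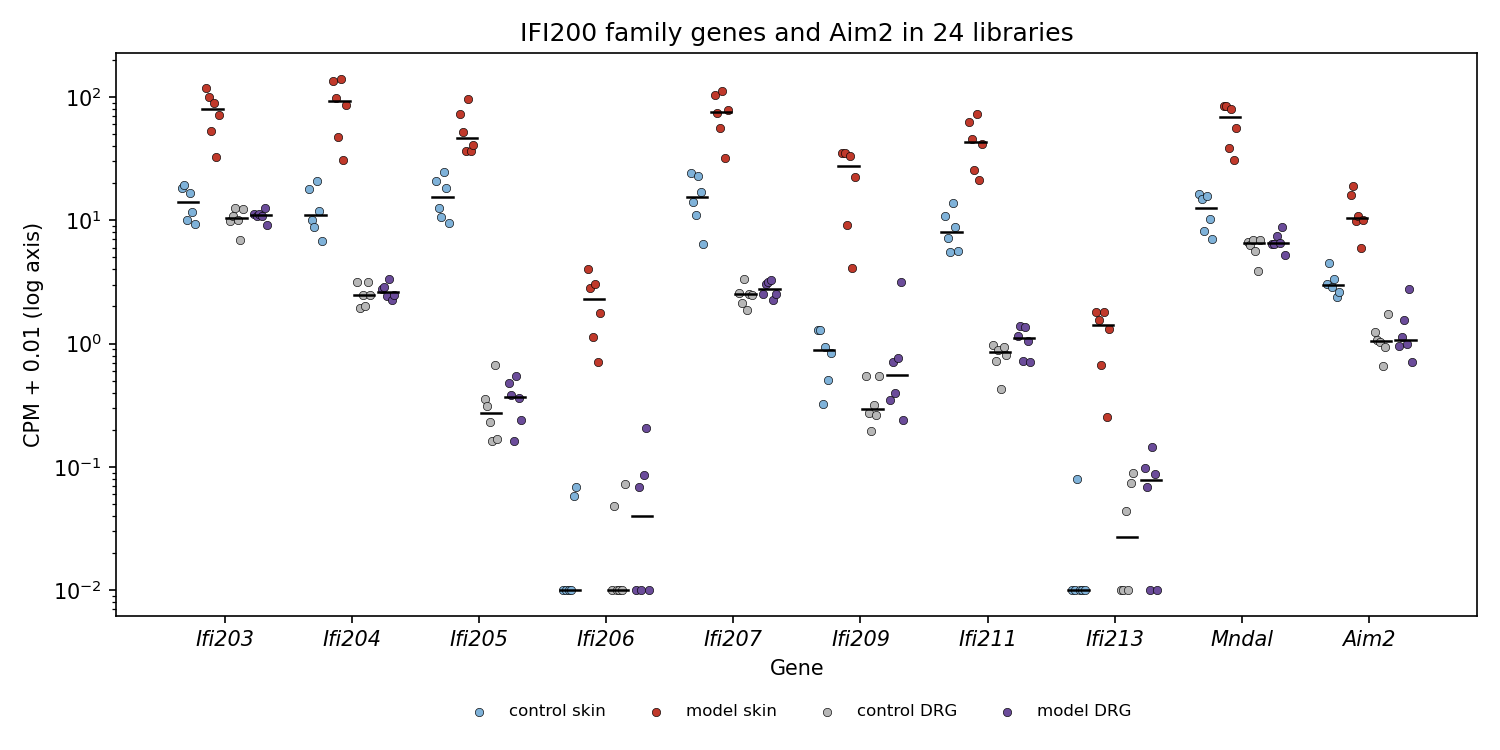
CPM of each of the 10 genes in each of the 24 libraries, on a log axis after adding 0.01; points are libraries, coloured by group. For every gene the 6 model skin libraries lie above the 6 control skin libraries, and the control and model DRG libraries overlap.

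In skin the members moved together from library to library, and some genes outside the family moved with them. Their summed level was 48.2 to 119 CPM in control skin (median 82.2) and 195 to 640 CPM in model skin (median 460). Skin model 5 was the lowest at 195 CPM, followed by skin model 3 at 277 CPM, and skin model 1 and skin model 4 were the highest at 634 and 640 CPM. Across the 12 skin libraries, with each group's mean log2 CPM taken off, a member's Pearson r with the mean of the other 9 was between 0.54 (Ifi206) and 0.94 (Ifi204). The libraries share their scaling and the genes share sequence, and the values are a description. The genes outside the family with the highest r to the members' mean in the same 12 libraries, among 16261 ranked, were Cfb (0.99), which encodes complement factor B, Bst1 (0.98), an ADP-ribosyl cyclase, the gene model Gm13767 (0.97), Trim30a (0.97), a tripartite motif gene, and Slfn8 (0.97), a Schlafen gene.

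Markers of monocytes and macrophages were higher in the same libraries. In model skin 10 of 10 of these markers passed as higher (edgeR QL, BH-adjusted p under 0.05), for example Adgre1, which encodes F4/80, and Fcgr1, a high-affinity IgG receptor. Their summed level was 192 to 508 CPM in control and 691 to 2240 CPM in model skin, and skin model 5 was again the lowest model library. The highest was skin model 6, in which the members summed to 408 CPM, below skin model 1 and skin model 4. None of the 10 markers was at 0 in any group. Of the other lists, 7 of 8 dendritic cell markers, 6 of 7 lymphocyte markers and 3 of 6 neutrophil markers passed as higher, and 0 of 7 keratinocyte markers passed (1 as lower at an unadjusted p under 0.05). Over all genes tested in skin, 14.1% passed as higher and 5.82% as lower. The sums in control and model skin were 32.3 to 73 and 71.1 to 115 CPM for dendritic cells. For lymphocytes they were 2.06 to 7.11 and 10.3 to 176 CPM, with skin model 2 at 176 CPM. For neutrophils they were 18.3 to 282 and 58.9 to 258 CPM. The part of all these cells in the members' difference was not tested.

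**Figure D2:**
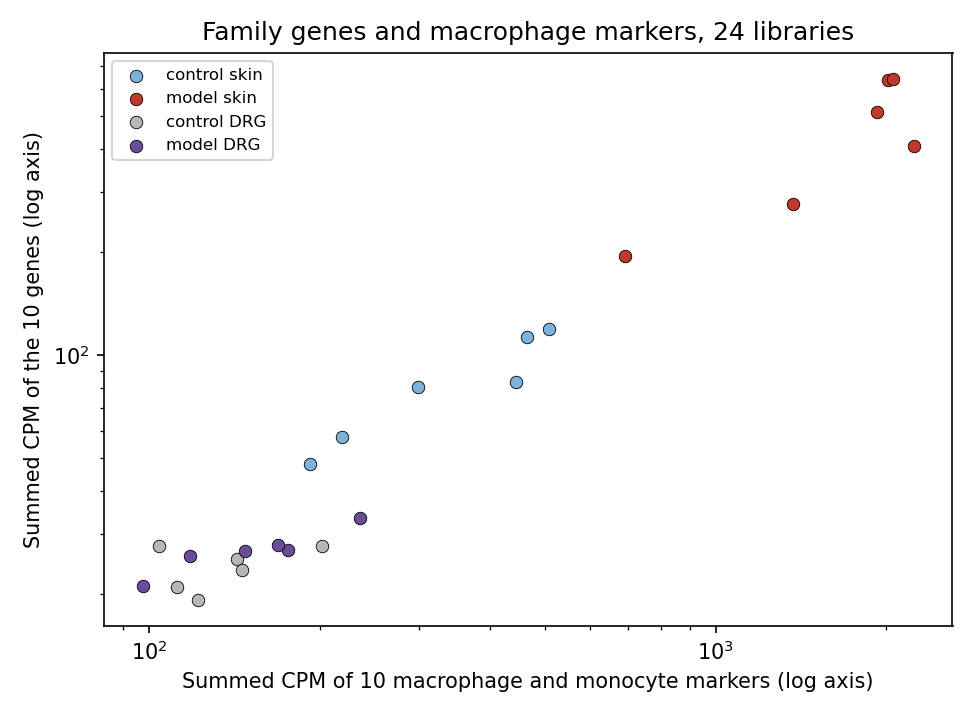
Summed CPM of the 10 genes (vertical, log axis) against the summed CPM of 10 macrophage and monocyte markers (horizontal, log axis), 1 point per library and 1 colour per group. Model skin libraries lie highest on both axes, and the model skin library lowest on both (195 CPM and 691 CPM) is skin model 5; DRG libraries stay at 19.3 to 33.4 CPM on the vertical axis.

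In the ganglia the same genes were present at low levels, and control and model libraries overlapped for all of them. Of the 10 members, 8 passed the filter on low counts, and 0 of 8 met the call (0 also in DESeq2, and 1 at an unadjusted edgeR p under 0.05), against 0.0974% of all 19509 genes tested in DRG that were called higher. The 6 model libraries all exceeded the 6 controls in 0.369% of the genes tested in DRG and in 0 of the 8 members. The median log2 fold change of the 8 was 0.18, and that of all genes tested was -0.01. The summed level of the 10 was 19.3 to 27.7 CPM in control DRG and 21.1 to 33.4 CPM in model DRG. The 10 macrophage markers summed to 104 to 202 CPM in control and 97.4 to 236 CPM in model DRG, and 0 of 10 passed (0 at an unadjusted p under 0.05). Of the dendritic cell markers 1 of 6 passed as higher, and 0 to 1 did with any 1 DRG library left out. Of 7 neutrophil and 4 lymphocyte markers 0 passed, with 2 and 1 higher at an unadjusted edgeR p under 0.05. The neutrophil markers had a median log2 fold change of 1.18. The part of these cells in the members' values was not tested.

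Ifi203 was the highest member in DRG by CPM, at 6.95, 10.5 and 12.6 CPM (lowest, median and highest) in control and 9.09, 11.1 and 12.5 CPM in model libraries (log2 0.07 ± 0.13, SE). Mndal followed at 3.85, 6.48 and 6.97 CPM and 5.18, 6.5 and 8.85 CPM (log2 0.17 ± 0.15, SE). Ifi204 was at 1.93, 2.47 and 3.15 CPM and 2.25, 2.6 and 3.34 CPM (log2 0.09 ± 0.15, SE). The control and model ranges of these 3 genes overlapped. Ifi207 had a log2 fold change of 0.18 ± 0.14 (SE), Ifi205 of 0.19 ± 0.39 (SE) and Ifi211 of 0.43 ± 0.23 (SE), with 4 of 6 model libraries of Ifi211 above all controls.

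Ifi209 and Aim2 had 1 model library above the rest. Ifi209 was at 0.186, 0.285 and 0.537 CPM in control DRG and at 0.231, 0.543 and 3.15 CPM in model DRG, where 3.15 CPM was DRG model 5 and the next library was at 0.748 CPM. Its log2 fold change was 1.40 ± 0.60 (SE), and 0.47 without DRG model 5. Aim2 was at 0.648, 1.04 and 1.72 CPM in control and at 0.694, 1.05 and 2.74 CPM in model DRG, with 2.74 CPM again in DRG model 5 (log2 0.28 ± 0.31, SE, and -0.05 without that library). DRG model 5 also had the highest summed macrophage, lymphocyte and neutrophil markers of model DRG, at 236, 13.9 and 344 CPM, and their part in these values was not tested. Ifi206 had 6 counts in control and 18 in model DRG and Ifi213 had 11 and 21, too few to be tested.

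**Figure D3:**
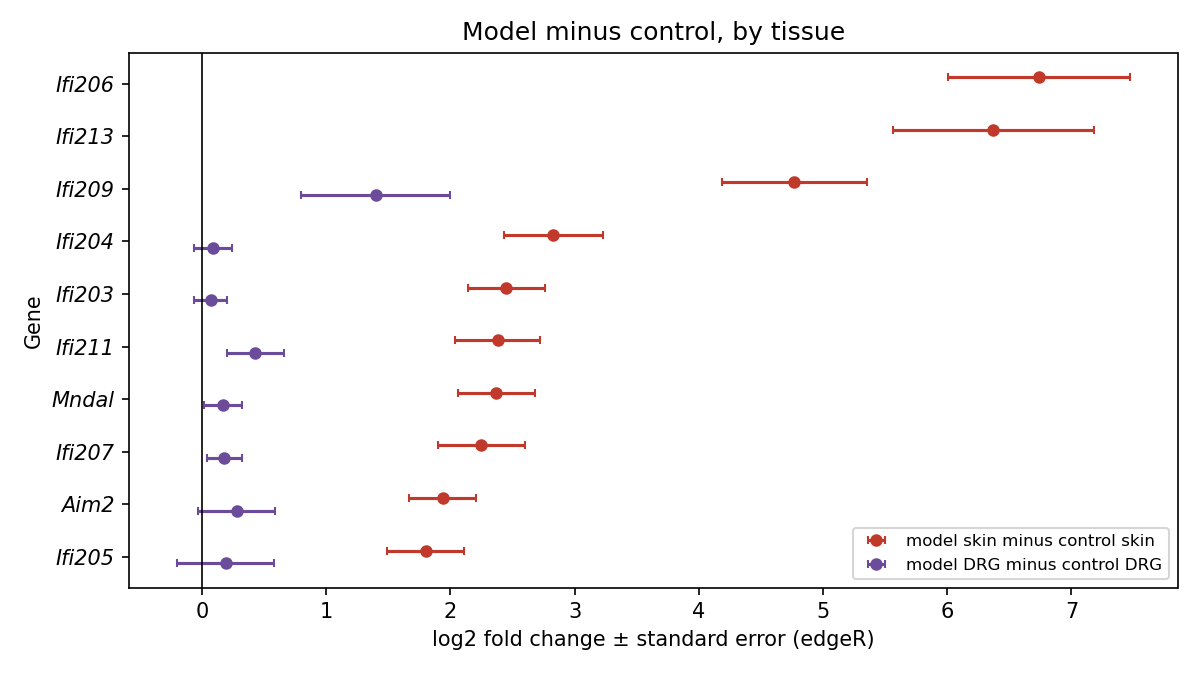
log2 fold change of model against control with its standard error (edgeR) for each gene, in skin and in DRG. Skin values run from 1.80 (Ifi205) to 6.74 (Ifi206), and DRG values, given for the 8 genes that passed the filter, run from 0.07 (Ifi203) to 1.40 (Ifi209).

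Side by side, the skin change exceeded the DRG change by a log2 value of 3.33 ± 0.84 (SE) for Ifi209, 2.69 ± 0.43 for Ifi204, 2.33 ± 0.33 for Ifi203, 2.16 ± 0.34 for Mndal and 2.03 ± 0.39 for Ifi207, in 1 fit of all 24 libraries. For Ifi211, Aim2 and Ifi205 it was 1.90 ± 0.42, 1.61 ± 0.42 and 1.56 ± 0.52. These differences combine the contrasts on which the members were chosen and carry no test.

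The comparison of control skin with control DRG was not used to choose the members and was tested. The 6 control skin libraries are the same as in the comparison above, and CPM are scaled within this pair of groups and so differ slightly from those given above. Of 8 members tested, 7 were higher in control skin and 0 lower, against 41.4% and 42% of all 20448 genes tested. Ifi205 differed most, at 15.5 ± 5.86 CPM in skin and 0.314 ± 0.198 CPM in DRG (SD, n = 6 each), 49.5-fold (log2 5.63 ± 0.40, SE; edgeR QL, BH-adjusted p = 2e-08). Ifi211 followed at 8.34 ± 3.12 and 0.799 ± 0.207 CPM, 10.5-fold (edgeR QL, BH-adjusted p = 8.22e-08), with the limit of sequence shared with Ifi205. For these 2 genes and for Ifi207, Ifi204 and Aim2, all 6 skin libraries lay above all 6 DRG libraries, as in 32.7% of all genes tested.

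Ifi207 was 6.17-fold and Ifi204 4.83-fold higher in control skin (edgeR QL, BH-adjusted p = 1.73e-06 and 3.48e-06). Aim2 was at 3.01 ± 0.671 CPM in skin and 1.12 ± 0.365 CPM in DRG, 2.73-fold (edgeR QL, BH-adjusted p = 4.25e-05). Ifi209 was 2.35-fold higher with 4 of 6 skin libraries above all DRG libraries, and Mndal 1.92-fold with 5 of 6 (edgeR QL, BH-adjusted p = 0.00795 and 0.00159). Ifi203 did not pass, at 13.7 ± 4.09 and 10.6 ± 2.08 CPM (log2 0.38 ± 0.20, SE; edgeR QL, BH-adjusted p = 0.0932). It passed without skin control 3 or skin control 6 (edgeR QL, BH-adjusted p = 0.0451 and 0.0311). Ifi206 and Ifi213, with a few counts in either tissue, were not tested. Macrophage markers also differed between the control tissues, with 9 of 10 higher and 1 lower in skin, and their part in these differences was not tested.

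Per transcript length, on the authors' TPM scale, the make-up of the family differed between the tissues. In control skin Ifi205 was the highest member at 20.6 ± 7.59 TPM (SD, n = 6), followed by Ifi204 (11.2 ± 4.82), Mndal (10.8 ± 3.66), Ifi211 (9.96 ± 3.63), Ifi207 (9.40 ± 4.03) and Ifi203 (6.30 ± 1.97), whose ranges overlapped their neighbours'. Aim2 (1.36 ± 0.541 TPM) and Ifi209 (0.504 ± 0.24 TPM) were lower, and Ifi206 and Ifi213 were below 0.1 TPM in each control library. In control DRG the order was Mndal (6.14 ± 1.2 TPM), Ifi203 (5.23 ± 1.13), Ifi204 (2.57 ± 0.552), Ifi207 (1.71 ± 0.367) and Ifi211 (1.03 ± 0.278). Aim2 (0.507 ± 0.172), Ifi205 (0.457 ± 0.29) and Ifi209 (0.239 ± 0.112) came next, and Ifi206 and Ifi213 were again below 0.1 TPM. Neighbours in the DRG order from Mndal to Ifi209 overlapped in range, except that Ifi203 lay above Ifi204 in all 6 libraries and that Ifi207 and Ifi211 met at 1.29 TPM.

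The summed TPM of the 10 genes was 70.1 ± 24.2 in control skin, 365 ± 150 in model skin, 17.9 ± 2.47 in control DRG and 21.3 ± 3.47 in model DRG (SD, n = 6 each). Ifi205 made up 29.3 ± 3.03% of the sum in control skin, 20.6 ± 4.61% in model skin and 2.68 ± 2.04% in control DRG. Mndal made up 15.5 ± 2.27% in control skin and 34.2 ± 4.47% in control DRG, and Ifi203 9.27 ± 2.13% and 29.1 ± 4.02%. From control to model skin the share of Ifi204 went from 15.7 ± 1.68% to 21.3 ± 3% and that of Ifi209 from 0.746 ± 0.366% to 3.5 ± 1.34%, while Mndal, Ifi203 and Ifi211 kept shares within 1 SD of their control values (15.7 ± 1.76%, 9.42 ± 1.3% and 14.3 ± 1.01% in the model). Aim2 made up 2.15 ± 1.07% of the sum in control skin and 2.08 ± 0.523% in model skin.

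**Figure D4:**
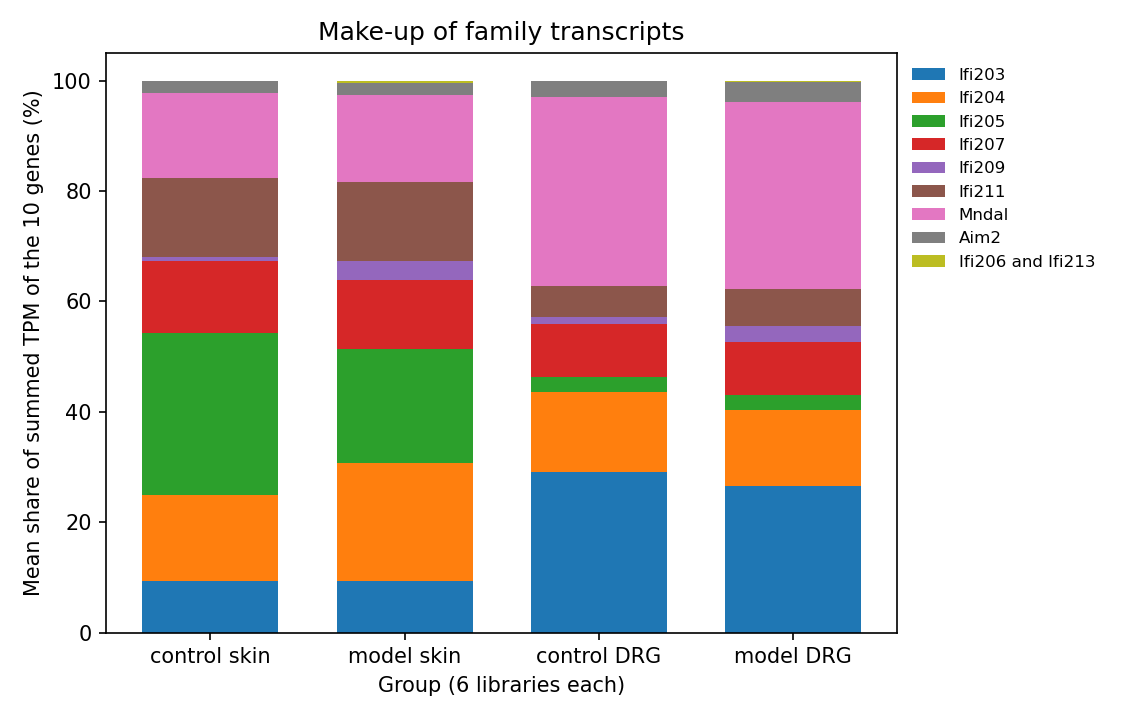
Mean share (percent) of each gene in the summed TPM of the 10 genes, stacked by group, 6 libraries each. Ifi205 takes 29.3% in control skin and 2.68% in control DRG, where Mndal (34.2%) and Ifi203 (29.1%) are the largest shares.

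The 4 other family genes in the table were not among the members, and they were tested. They too were listed with earlier results of these data known. Reads can be shared here too: 11.8% of the 75-base stretches of Ifi208 occurred in another family gene (most in Ifi213 and Ifi206), 11.6% of those of Ifi203-ps (most in Ifi203), 10% of those of Ifi214 (in Ifi209) and 0% of those of Ifi202b. The tests of the first 3 are therefore not independent of the members. All 4 of the other family genes in the table passed as higher in model skin, against 14.1% of all genes tested there. All 4 still passed with any 1 skin library left out. Ifi208 and Ifi214 entered this test only through their model libraries, so nothing is read from their calls. Ifi202b, whose product carries HIN domains without a pyrin domain and has been described as an inhibitor of Aim2, was at 14.7, 18.7 and 58.6 CPM in control skin and at 52.8, 92.3 and 142 CPM in model skin. It was 3.5-fold higher (edgeR QL, BH-adjusted p = 0.00684), and 4 of 6 model libraries lay above every control. Ifi208 was 29.9-fold higher with 46 control counts and Ifi214 79.4-fold higher with 19 control counts. The pseudogene Ifi203-ps was 3.77-fold higher (edgeR QL, BH-adjusted p = 0.000963). The upstream windows of Ifi208 and Ifi214 also held GAAATCGAAA, and that of Ifi202b held no match to the response element but 1 match to the interferon-gamma activated site (TTCTCAGAA, from position -148). In DRG 2 of these 4 genes could be tested and 0 passed in edgeR or DESeq2 (Ifi202b, at 1.99 ± 0.48 and 2.88 ± 0.715 CPM, was the 1 gene at an unadjusted edgeR p under 0.05).

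Genes of other families lie beside and within the cluster. Of the 3 nearest tested genes on each side and the 2 inside it, 3 of 8 passed as higher in model skin. The share over all genes tested in skin was 14.1%. Cadm3, a cell adhesion gene that overlaps Aim2, went from 35.1 ± 6.94 to 55.2 ± 13.5 CPM, 1.57-fold (edgeR QL, BH-adjusted p = 0.0196). Rgs7, a regulator of G protein signalling, was 2.45-fold higher (edgeR QL, BH-adjusted p = 0.0116). Fcer1a, the IgE receptor alpha chain, was 7.25-fold higher at under 2 CPM (edgeR QL, BH-adjusted p = 0.0361), a call lost without any of 7 skin libraries (model 1, 2 or 4, control 1, 3, 5 or 6; 0.0506 to 0.0826). Crp, Ackr1, Gm18445 and Fmn2 were among those that did not pass (edgeR QL, BH-adjusted p = 0.593, 0.0752, 0.685 and 0.216).

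Other genes of the pathways in which the family has been placed were listed by role. There were 20 for DNA sensing, 14 for the inflammasome and 22 for interferon and its signalling. Among the DNA sensing genes tested in skin, 7 of 20 passed as higher and 3 as lower, with a median log2 fold change of 0.05. The shares over all genes tested in skin were 14.1% and 5.82%. Zbp1, a sensor of Z-form nucleic acids, was at 2.25, 3.29 and 4.47 CPM in control skin and at 10.6, 48.8 and 73.9 CPM in the model, 13.7-fold higher (edgeR QL, BH-adjusted p = 0.000548). Tlr9, the endosomal receptor for DNA, and Unc93b1, which carries it to the endosome, were 9.4-fold and 4.6-fold higher (edgeR QL, BH-adjusted p = 0.000553 and 0.000582), and Samhd1, a nucleotide hydrolase, 3.31-fold (edgeR QL, BH-adjusted p = 0.000595). Tmem173, which encodes STING, went from 9.72 ± 2.55 to 25.8 ± 9.56 CPM, 2.66-fold (edgeR QL, BH-adjusted p = 0.00224). Cgas, the enzyme upstream of STING, was at 9.18 ± 1.45 and 10.6 ± 1.4 CPM and did not pass (log2 0.20 ± 0.13, SE; edgeR QL, BH-adjusted p = 0.291). The other 2 genes that passed as higher were Trex1 and Ikbke, named after their values were seen.

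Irf3, the transcription factor that STING activates, was 1 of the 3 genes that passed as lower (58.1 ± 3.88 to 50.7 ± 3.21 CPM, log2 -0.20 ± 0.064, SE; edgeR QL, BH-adjusted p = 0.0488). The others were Dnase2a and Xrcc5, named after their values were seen (edgeR QL, BH-adjusted p = 0.0494 and 0.0276). With any 1 skin library left out, 0 to 3 genes of the list passed as lower, and with the replicate block 0 did. Irf3 was lost without any of 11 of the 12 libraries, all but skin control 2 (edgeR QL, BH-adjusted p = 0.0745 to 0.177).

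Of 14 genes of the inflammasome 10 passed as higher and 0 as lower in skin, against 14.1% and 5.82% of all genes tested. Their median log2 fold change was 1.42. The sensors and the pore differed, while the adaptor and the protease that act with Aim2 did not pass. Mefv, which encodes pyrin, Naip5, a receptor for bacterial flagellin, and Nlrp3 were 5.71-fold, 5.55-fold and 4.47-fold higher (edgeR QL, BH-adjusted p = 0.000594, 0.000711 and 0.00123). Gsdmd, which encodes the pore-forming gasdermin D, went from 8.31 ± 2.32 to 28.3 ± 8.06 CPM, 3.41-fold (edgeR QL, BH-adjusted p = 0.000595). Pycard, the adaptor ASC, averaged 32.2 ± 7.99 CPM in control skin and 30.1 ± 4.05 CPM in the model (log2 -0.10 ± 0.15, SE; edgeR QL, BH-adjusted p = 0.681). Casp1 was at 33.3 ± 7.99 and 38.8 ± 3.02 CPM (log2 0.22 ± 0.14, SE; edgeR QL, BH-adjusted p = 0.275).

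Of the cytokines that caspase-1 matures, Il1b averaged 3.36 ± 2.01 CPM in control and 10.8 ± 7 CPM in model libraries (edgeR QL, BH-adjusted p = 0.0253). The difference was 3.21-fold, and 3 of 6 model libraries lay above every control. That call was lost without skin model 4 or skin control 3, 5 or 6 (edgeR QL, BH-adjusted p = 0.0592, 0.0527, 0.0603 and 0.0587). Il18 was at 25.7 ± 13 and 28.2 ± 7.2 CPM and did not pass (edgeR QL, BH-adjusted p = 0.772).

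The interferon genes on the list, Ifnb1, Ifng, Ifnk and Ifne, were at or near 0 in skin, and no other interferon gene was listed. Most of the listed genes that carry the interferon signal were higher. Ifnb1, interferon beta, had 0 counts in the 6 control skin libraries and 23 counts in model skin, in 5 of 6 libraries at 2 to 10 counts and at 0 in skin model 5. Set against 3 counts over the whole control group as a floor, the model level was 7.69-fold higher. That value is no lower bound, since the model counts are few too, with 10 of the 23 in skin model 1. Ifnb1 did not pass the filter for a test. Ifng had 21 counts in control and 46 in model skin and was not tested either. Of 18 genes of the list that were tested 15 passed as higher and 0 as lower, against 14.1% and 5.82% of all genes. Their median log2 fold change was 0.74. Irf7, a transcription factor of the interferon response, was at 9.63, 10.3 and 15 CPM in control skin and at 33.8, 162 and 259 CPM in the model, 13.6-fold higher (edgeR QL, BH-adjusted p = 0.000548). Usp18, an interferon-induced brake on the receptor, was 7.62-fold higher (edgeR QL, BH-adjusted p = 0.000582). Stat2 and Irf9, subunits of the factor that binds the response element searched above, were 2.62-fold and 1.76-fold higher (edgeR QL, BH-adjusted p = 0.000552 and 0.000855). Irf5 was 2.07-fold higher (edgeR QL, BH-adjusted p = 0.000553).

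In DRG 51 of the 56 pathway genes were tested and 0 passed in edgeR, or in DESeq2, with 3 at an unadjusted edgeR p under 0.05. Their median log2 fold change was 0.02. The 3 were Ikbke (log2 0.67 ± 0.22, SE), Nlrc4 (0.67 ± 0.21) and Stat2 (0.14 ± 0.047), each with an edgeR QL BH-adjusted p of 0.448 to 0.463. Tested directly, the model effect was larger in skin than in DRG for 24 of 51 pathway genes and smaller for 0, against 10.6% and 6.43% of all 17251 genes compared. The median of that difference was a log2 value of 0.49, and -0.04 over all genes. It was 3.68 ± 0.40 (SE) for Irf7 and 3.29 ± 0.55 for Zbp1 (edgeR QL, BH-adjusted p = 6.1e-06 and 0.000349).

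**Figure D5:**
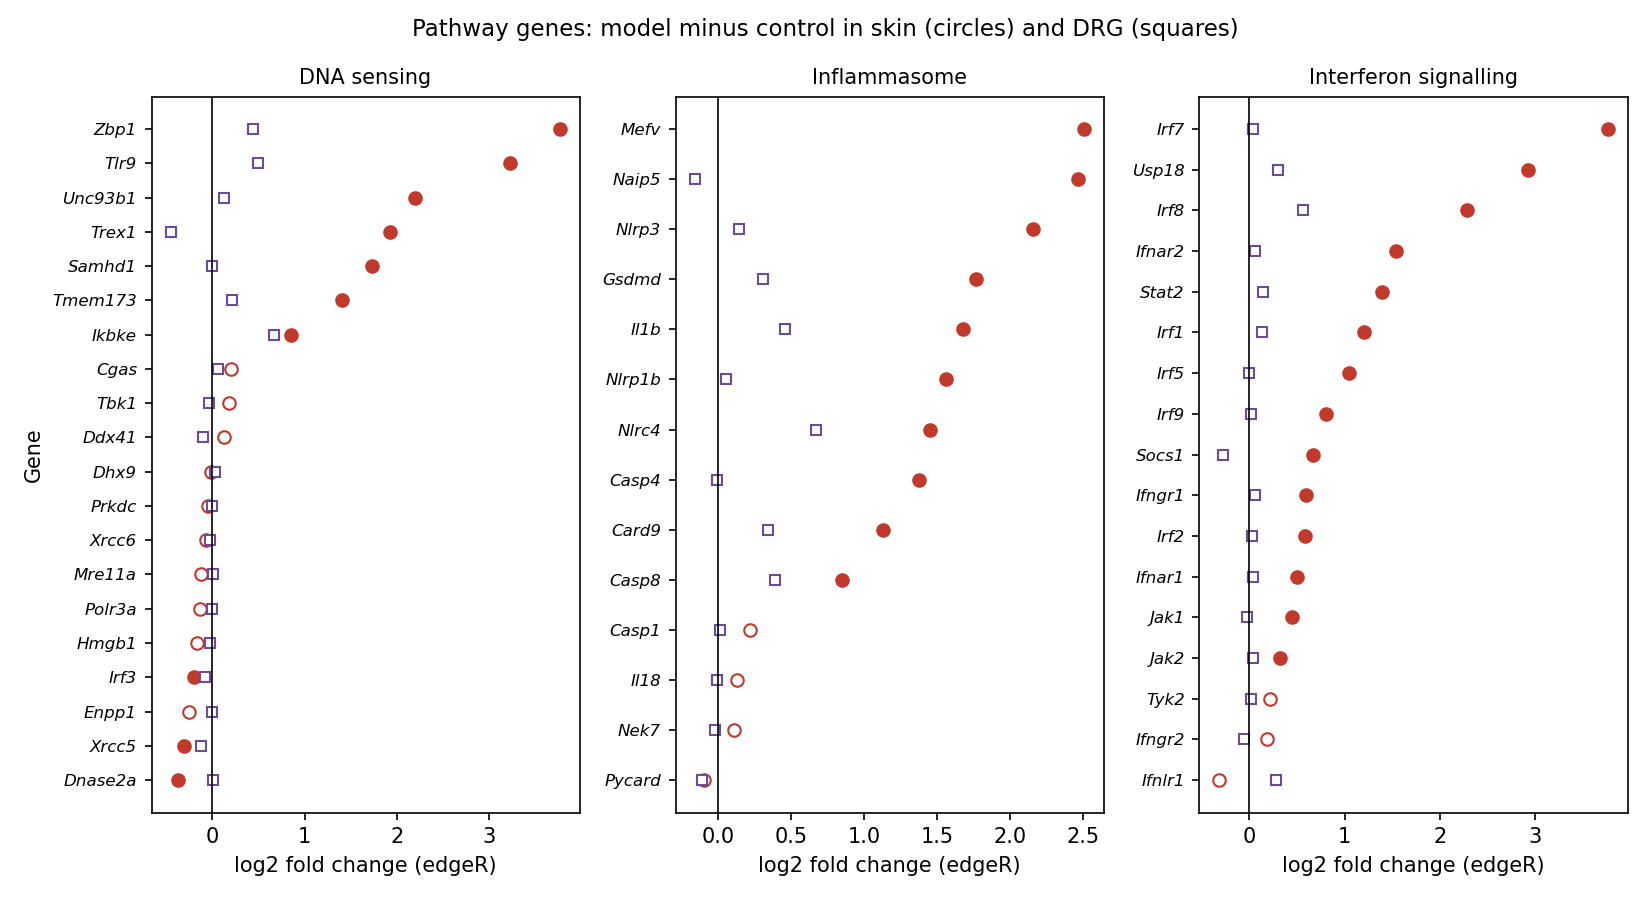
log2 fold change (edgeR) of model against control for 51 of the 52 pathway genes tested in skin, in skin (circles) and DRG (squares), in 1 panel per list. In skin Zbp1 and Irf7 are highest at 3.77 each, Pycard and Casp1 stay at -0.10 and 0.22, and the DRG values lie between -0.45 and 0.67.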

How the data were processed

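Skin and DRG RNA of 4 groups of 6 mouse libraries was sequenced, and titles of the samples gave the groups. The authors deposited read counts per gene without normalization, as whole numbers, per the file headers. TPM values, scaled to transcript length, were likewise computed and deposited by the authors. Tools in the submitters' processing notes are HISAT2 2.1.0, StringTie 2.1.3b, bcl2fastq 2.20.0 and Trimmomatic, with GRCm38/mm10, so BALB/c reads met a C57BL/6J reference. The strand setting and the handling of reads that map to several places are not given in the sources used here.

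Each pair of groups had its own fit on the whole table in edgeR 4.0.16 under R 4.3.3, with filterByExpr, TMM factors and the robust quasi-likelihood (QL) F test, and BH adjustment over all genes tested. The difference between tissues was a contrast of the 4 group means, for genes that passed the filter in both. Library totals ranged from 45238735 to 68396846 counts; 3 counts over the 6 control skin libraries, the floor, equal 0.00927 CPM, which covers counting error only. Alternatives were DESeq2 1.42.0, RLE factors, no filter, at least 1 CPM in 6 libraries, limma 3.58.1 on log2(TPM + 1) and log2(TPM + 0.1), a replicate block, 1 joint fit and each library left out in turn. On counts simulated from the means and dispersions of the real libraries, 20, 60, 78 and 96% of genes changed 1.5-fold, 2-fold, 4-fold and 8-fold were recovered in skin (8 of 135 calls false), and 52, 84, 92 and 92% in DRG (6 of 166 false).

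The members and gene lists were chosen with earlier results of these data known. All 10 members were named, with up to 4 genes of the smallest p in skin and 2 in DRG per list, some central pathway genes always, the 5 genes most like the members, and the nearest 3 tested neighbours on each side. The 2 genes inside the cluster were added afterwards. The counts include 2 genes that are not reported here by name.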

Additional observations from a re-analysis of the deposited data

Results flagged for a closer look

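Among the 40 groups of 6 libraries formed by the 10 genes, 2 had a single library apart from the others (Dixon's ratio above its 95% critical value), a number that chance gives at about 5% of groups. Ifi209 in model DRG was at 3.15 CPM in DRG model 5, with the next library at 0.748 CPM and the lowest at 0.231 CPM. Ifi213 in control skin was at 0.0693 CPM in skin control 3, where all 4 of its control counts lay, with the other 5 libraries at 0.

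For 24 pathway genes the model effect differed between skin and DRG by a test of the difference itself (edgeR QL on 24 libraries, BH-adjusted p from 6.1e-06 to 0.0294), and in each the skin change exceeded the DRG change. The values of 23 are given here. On the log2 scale the difference among DNA sensing genes was 3.29 for Zbp1, 2.71 for Tlr9, 2.32 for Trex1, 2.03 for Unc93b1, 1.68 for Samhd1 and 1.16 for Tmem173. Among inflammasome genes it was 2.59 for Naip5, 1.98 for Nlrp3, 1.47 for Nlrp1b, 1.41 for Gsdmd and 1.35 for Casp4. Among the interferon receptors it was 1.44 for Ifnar2, 0.49 for Ifngr1 and 0.42 for Ifnar1. Among transcription factors it was 3.68 for Irf7, 1.69 for Irf8, 1.21 for Stat2, 1.03 for Irf1, 1.01 for Irf5, 0.76 for Irf9 and 0.51 for Irf2. For the feedback genes Usp18 and Socs1 it was 2.58 and 0.90.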

How the results depend on the processing

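Under every alternative run, the number of members called and the number of pathway genes called in either direction stayed within 1.5 times the values given, and no called direction of a member turned. The 3 pathway genes lower in skin were an exception: 0 passed as lower with the replicate block and in both limma fits, 1 without a filter, 2 with at least 1 CPM in 6 libraries and 5 in the joint fit. Members called in skin were 8 to 10, with 8 when at least 1 CPM in 6 libraries was required, since Ifi206 and Ifi213 were then not tested. They were 0 in DRG throughout, and 6 to 8 between the control tissues. Without 1 library in turn, members called were 10 in skin, 0 in DRG and 7 to 8 between the control tissues, and pathway genes called in skin were 28 to 36 against 35. For the fold changes of single members, 13 values moved by more than the spread between libraries and 493 did not. They moved mostly on the TPM scales, where low genes are compressed: in skin Ifi206 was 1.16 and 3.56, Ifi213 0.69 and 2.67 with 1 and 0.1 added, and Ifi205 between the control tissues was 3.83 with 1 added. In DRG, Aim2 was -0.05 without DRG model 5 and Ifi203 -0.03 without DRG control 5. The number of all genes called moved more. In skin 2755 were higher and 1137 lower, against 3153 and 2398 in DESeq2, 2264 and 540 with the replicate block, 3416 and 3404 in the joint fit, 2699 and 447 in limma on log2(TPM + 1), and 308 to 2554 lower without 1 library. In DRG 19 were higher, against 118 in DESeq2, 31 in the joint fit and 6 with the block. Deviations of same-numbered model and control libraries correlated at -0.51 to 0.26 in skin and -0.38 to -0.05 in DRG. Skin and DRG libraries of a group carry matching numbers in their names. Their deviations correlated at -0.04 to 0.08 in control and -0.14 to 0.06 in model mice. A low correlation between 2 tissues does not show that they came from different animals, so such a pairing stays unknown. With the replicate block the members called were 10 in skin, 0 in DRG and 7 between the control tissues, and pathway genes called were 32 in skin and 0 in DRG, with 24 for the tissue difference. Depth limits Ifi206, Ifi213 and Ifnb1, which had 0 to 23 counts in at least 1 group.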

Other observations

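In control tissue, other genes of the inflammasome also differed between skin and DRG. Of 14 tested, 11 were higher in control skin and 2 lower, against 41.4% and 42% of all genes tested. Pycard, the adaptor through which Aim2 reaches caspase-1, averaged 31.1 ± 7.15 CPM in skin and 0.686 ± 0.125 CPM in DRG (SD, n = 6 each), 45.7-fold higher, with all 6 skin libraries above all DRG libraries (edgeR QL, BH-adjusted p = 1.31e-11). Skin exceeded DRG 3.92-fold for Casp1 and 5.99-fold for Il18 (edgeR QL, BH-adjusted p = 1.06e-07 and 5.7e-07), and Gsdmd 1.86-fold (edgeR QL, BH-adjusted p = 0.00122). Of 20 DNA sensing genes tested, 13 were higher in control skin and 3 lower, against the same 41.4% and 42% of all genes. Cgas was at 8.89 ± 1.52 CPM in skin and 1.24 ± 0.198 CPM in DRG, 7.27-fold higher. Tmem173 was 1.82-fold higher in skin (edgeR QL, BH-adjusted p = 1.03e-09 for Cgas and 0.000279 for Tmem173). Ifi202b, the family gene described as an inhibitor of Aim2, averaged 26 ± 16.6 CPM in skin and 2.03 ± 0.491 CPM in DRG, 13-fold higher (edgeR QL, BH-adjusted p = 6.28e-07).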
